A study of Rattus norvegicus with 8 samples.

Results

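Among the reads listed as miRNAs in exosomes of rat intervertebral disc cells, 74 rows carried the name of a mouse or human miRNA of 7 families: miR-6236, miR-6240, miR-2137, miR-4508, miR-5119, miR-3473 and miR-1246. They were chosen by name alone, as rows containing 1 of these 7 names and not starting with the rat, bovine or predicted-candidate prefix. They made up 74 of 1512 rows and 54 of 1367 distinct sequences. The families were picked after the difference between the cell types had been seen in these libraries, so their levels in the 2 groups are given as a description without support from a test.

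Exosomes are vesicles shed by cells, and their small RNA was sequenced in 2 groups. These were 4 libraries from nucleus pulposus cells (NPC), which fill the soft disc core, and 4 from nucleus pulposus progenitor cells (NPPC). The labels give the tissue as intervertebral disc and name no strain, age, passage, treatment or number of animals. Whether libraries of the same group stem from different cultures or different animals is not stated, so every p-value reflects only how much these libraries varied, possibly for technical reasons. Per the labels' protocols, an exosome RNA kit and an Illumina small RNA library kit were used.

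A miRNA is cut from the stem of a hairpin precursor, and its bases 2 to 8, the seed, pair with target mRNAs. Small RNA libraries also hold pieces of longer RNAs, such as ribosomal RNA, transfer RNA, small nuclear RNA and transcribed repeats, and extracellular vesicle preparations are known to be rich in them. As background from the literature, the miRNA entries named miR-6236, miR-6240, miR-2137 and miR-4508 have sequences found in the large ribosomal RNA. The entry miR-3473 resembles the rodent B2 repeat, and miR-1246 matches part of the U2 small nuclear RNA. Neither a ribosomal nor a small nuclear RNA sequence was used here, so the origin of the reads was not tested.

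The sequences that carry the counts are shown first, because their shape is what sets these rows apart from known rat miRNAs. They are the 3 most abundant sequences of each family, or all where a family has fewer, as written in the deposited table, with the seed in capitals. The miR-6236 and miR-6240 reads are tiles of longer stretches.
miR-6236 read 1: tGGCGCTGgagcgtcggg
miR-6236 read 2: aATCAACTagccctgaaa
miR-6236 read 3: aATCAACTagccctgaaaa
miR-6240 read 1: tTTCTGCCcagtgctctg
miR-6240 read 2: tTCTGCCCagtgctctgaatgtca
miR-6240 read 3: tTTCTGCCcagtgctctgaatgtc
miR-2137 read 1: gCCGGCGGgagccccggg
miR-2137 read 2: gCCGGCGGgagccccggggag
miR-2137 read 3: gCCGGCGGgagccccgggg
miR-4508 read 1: aAGCGGGGctgggcgcgc
miR-4508 read 2: aGCGGGGCtgggcgcgcg
miR-4508 read 3: aAGCGGGGctgggcgcgcg
miR-5119 read 1: cATCACATcctggggctgg
miR-5119 read 2: aTCACATCctggggctgg
miR-5119 read 3: cATCACATcctggggctg
miR-3473 read 1: gGGCTGGAgagatggctc
miR-3473 read 2: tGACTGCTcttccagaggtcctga
miR-1246 read 1: aATGGATTtttggagcagg
miR-1246 read 2: aACGGATTtttggagcagg
miR-1246 read 3: tGGATTTTtggagcaggg

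These reads were short. Of the 54 sequences 83.3% were 18 or 19 nt long, against 1.65% of the 424 sequences with rat miRNA names, 42.0% of those with names of further species, 20.97% of bovine and 69.2% of predicted ones. Only 5.56% had the 21 to 23 nt typical of a mature miRNA, against 89.2% of the rat sequences. The median length was 19 nt (18 to 26) against 22 nt for rat names.

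Their base composition was broad. The GC content ran from 33.3% to 94.7% with a median of 56.7%, where rat sequences had a median of 47.6%, bovine ones 52.2%, those of further species 56.8% and predicted ones 61.1%. The miR-2137 reads (88.9% to 94.7%) and the miR-4508 reads (83.3% to 88.9%) were the richest in G and C. The miR-6236 reads spanned 33.3% to 77.8%, the miR-6240 reads 44.4% to 70%, the miR-5119 reads 55.6% to 63.2% and the miR-1246 reads 42.1% to 50%.

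Few of the rows matched the miRNA they were named after. By the deposited table's own marks, 1 row equalled its miRBase sequence, 27 differed from it and 46 were marked as new. Of 455 rat rows 233 equalled it, of 73 bovine rows 18, and of 259 rows named after further species 34. A base substitution stood in the name of 49 rows (66.2%), against 5.49% of rat rows, 43.8% of bovine rows and 45.6% of rows named after further species. Every miR-2137 read carried A16G, counted from the 5′ end of the mouse miRNA, whose base comes first. The main miR-5119 read carried T5A, the most abundant miR-6236 read carried G15C and the miR-1246 read 2 carried T3C, each counted from the 5′ end of the sequence it was named after.

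Overlap within families was the rule. With a minimum shared run of 12 bases, 47 of the 54 sequences fell into 10 groups of overlapping reads, the biggest with 8 sequences, and no group joined 2 families. The 39 distinct seeds therefore mostly reflect the same stretches read from different first bases: AATCAACTAGCCCTGAAA and ACTAGCCCTGAAAATGGA overlap and have the seeds ATCAACT and CTAGCCC. Of the 54 sequences 0 lay within any of the 419 rat hairpins of RefSeq (GRCr8) as an exact match. Only the miR-6240 read aCAAAGCAtcgcgaaggccc shared its seed with a mature rat miRNA there, miR-330-3p, among 724.

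The counts of the rows were not independent. The 74 rows held 47 distinct sets of 8 values, and 49 rows shared all 8 values with another row. Most of these pairs had the same sequence, but 5 sets were held by different sequences. The 4 miR-6236 sequences aATCAACTagccctgaaa, aATCAACTagccctgaaaa, aCTAGCCCtgaaaatgga and aATGGATGgcgctggagc carried the same 8 values per row over 7 rows. The table does not say whether such rows divide or repeat the reads, so sums over rows may count reads more than 1 time. Values were estimated counts, and 54.7% of the 464 values above 0 were whole.

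Library totals ran from 329011 to 681591 counts in NPC and from 819845 to 1416940 in NPPC, so shares are more precise in NPPC. The NPC library numbered 1 stood apart, with a TMM scaling factor of 1.82 where the other 7 lay between 0.839 and 1.01. Both libraries numbered 1 also nearly lacked 1 of the families, so each family's mean ratio is given with and without them. The disc and cartilage markers (miR-140 and miR-455 arms, 4 of 4 detected) summed to 9968 to 26379 CPM in NPC and 7585 to 9165 CPM in NPPC, without overlap, where CPM is the library share scaled to 1000000 counts. Mesenchymal markers (miR-199a arms and miR-214-3p, 3 of 3 detected) did not overlap either, at 136434 to 175313 CPM in NPC and 122516 to 132457 CPM in NPPC. Red cell markers (3 of 3 detected) ran from 304 to 757 CPM and from 160 to 1294 CPM, and leukocyte markers (2 of 3, with miR-223-3p at 0) from 0 to 178 CPM and from 63.5 to 146 CPM. Their part in the results was not tested.

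All 74 rows together held a larger share of the NPC libraries. The shares were 1.28%, 1.20%, 1.33% and 2.59% in NPC replicates 1 to 4, and 0.489%, 0.663%, 0.971% and 0.482% in NPPC replicates 1 to 4. The NPC libraries all lay above the NPPC libraries, and NPC replicate 4 lay far above the other 3. The means were 1.60% ± 0.664 (SD, n = 4) and 0.651% ± 0.229 (SD, n = 4), a ratio of 2.45, and 1.70% and 0.705% without both libraries numbered 1. Relative to TMM-scaled totals the groups overlapped, with 6992 CPM in NPC replicate 1 and 11049 CPM in NPPC replicate 3. With each set of 8 values counted only 1 time the means were 0.931% and 0.368%. In pooled exosomes, a larger part of cells or vesicles that carry a read and more copies in each cannot be told apart. Predicted candidates also held more of the NPC libraries, at 1.12% ± 0.382 (SD, n = 4) against 0.445% ± 0.114 (SD, n = 4), a ratio of 2.52 without overlap. Bovine rows and rows of further species had ratios of 2.23 and 1.48 with overlap. The rows made up 29.7% to 60.3% of the NPC counts and 26.6% to 48.7% of the NPPC counts in rows named after other species, so these shares overlapped.

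**Figure D1:**
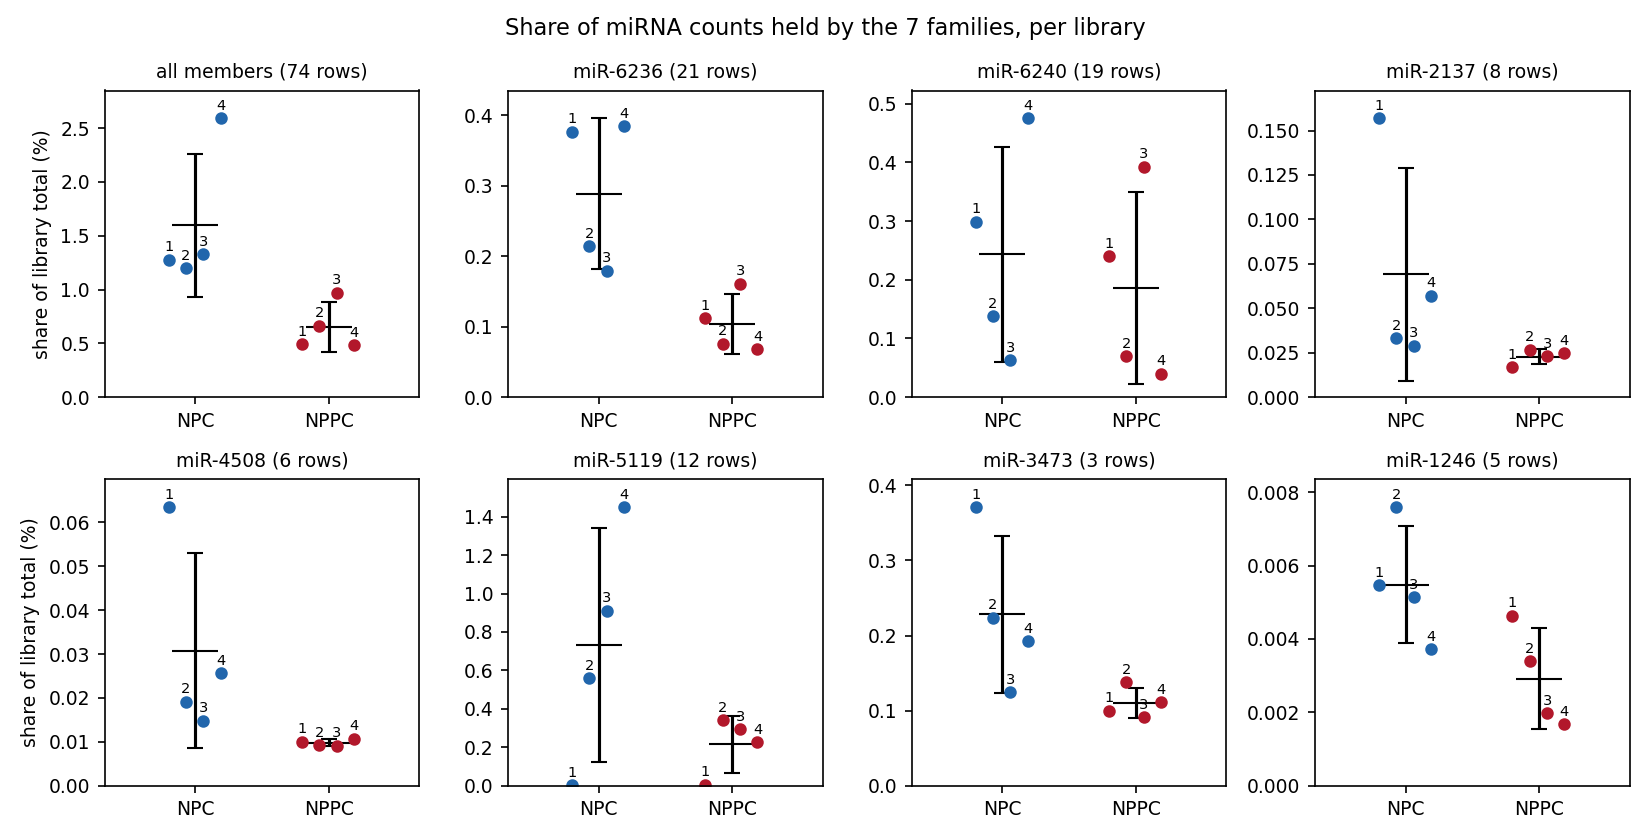
Share of each library's counts (percent, vertical axis) for all 74 rows and for each of the 7 families in NPC and NPPC exosomes. Points are libraries, numbered as in the labels, and the lines are the mean and SD of 4. For all rows the NPC libraries lie between 1.20% and 2.59% and the NPPC libraries between 0.482% and 0.971%, and miR-5119 is near 0 in both libraries numbered 1.

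The abundance was concentrated. The 5 most abundant sequences held 65.5% of the 65867 counts of the rows. Sequences listed in 2 rows with the same values, such as miR-5119 read 1, enter with both rows. Their counts, their rank and the CPM given per read may therefore be doubled against sequences listed in 1 row. Of the 54 sequences 29 had counts in all 8 libraries and 8 in 1 library only. By CPM of the library total, 9 of the 54 sequences had every NPPC library below every NPC library, where 2.19% of all 1367 sequences did, and 0 had every NPPC library above, where again 2.19% of all did. The choice of families used this contrast, so nothing is read from that count.

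The miR-6236 reads, named after a mouse entry and covered by 21 rows with 15 sequences, held 0.377%, 0.214%, 0.180% and 0.384% of the NPC libraries. In the NPPC libraries they held 0.112%, 0.0758%, 0.161% and 0.0677%. On the library total NPC replicates 1 and 4 were the highest, and NPPC replicate 3 was the highest of its group. On TMM-scaled totals NPC replicate 1 was instead the lowest NPC library, at 2066 CPM. NPC replicates 2 to 4 then stood at 2143, 2103 and 3794 CPM, and the ratio of means was 2.17. The groups did not overlap on the library total or on TMM-scaled totals. The means were 0.289% ± 0.107 (SD, n = 4) and 0.104% ± 0.0426 (SD, n = 4), a ratio of 2.77, or 2.56 without both libraries numbered 1, and with each set of 8 values counted 1 time they were 0.0861% and 0.0312%. Read 1 stood at 973, 493, 402 and 820 CPM in NPC and at 263, 220, 306 and 195 CPM in NPPC. Read 2, which lies in a different stretch of the same deposited hairpin, stood at 681, 375, 351 and 688 CPM and at 193, 123, 316 and 124 CPM. Read 3 is read 2 with a further A at its end, and its rows carry the same values.

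The miR-6240 reads, 19 rows with 15 sequences, differed more between libraries of a group than between the groups. They held 0.299%, 0.138%, 0.0626% and 0.475% in NPC and 0.240%, 0.0696%, 0.393% and 0.0399% in NPPC. The highest library was 7.59 times the lowest in NPC and 9.83 times in NPPC, and the groups overlapped, with means of 0.244% ± 0.183 (SD, n = 4) and 0.185% ± 0.164 (SD, n = 4). The ratio of means was 1.31, or 1.35 without both libraries numbered 1. Without NPC replicate 4 the difference turned, with an NPC mean of 0.167%. Read 2 showed the widest range, at 401, 131, 52.8 and 906 CPM in NPC and 1121, 64.2, 837 and 13.7 CPM in NPPC. Read 1 stood at 1036, 547, 216 and 1326 CPM and at 477, 179, 1337 and 101 CPM, and read 3 at 535, 201, 67.5 and 1188 CPM and at 238, 100.4, 621 and 30.9 CPM. For all 3, NPC replicates 1 and 4 and NPPC replicates 1 and 3 were the highest within their own group. Across groups this did not hold for read 1, where NPPC replicate 1 (477 CPM) lay below NPC replicate 2 (547 CPM).

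Reads named miR-6240 lie in separate stretches of a deposited hairpin, and the counts of those stretches moved by different amounts between libraries. The deposited hairpin of read 3, at chr14:46524695-46524793 on the plus strand (build not given), holds both, and the capitals mark a read of each.
miR-6240 hairpin: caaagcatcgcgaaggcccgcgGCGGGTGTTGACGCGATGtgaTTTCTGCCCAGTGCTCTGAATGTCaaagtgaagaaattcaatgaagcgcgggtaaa
The downstream stretch (7 sequences holding CCCAGTGCTCTG) summed to 2334, 1047, 376 and 3841 CPM in NPC and 2161, 400, 3505 and 177 CPM in NPPC, a 21.7-fold range. The upstream stretch (4 sequences holding GTTGACGCGATG) summed to 570, 294, 234 and 779 CPM and to 214, 255, 366 and 203 CPM, a 3.83-fold range. Their ratio was 4.10, 3.55, 1.61 and 4.93 in NPC and 10.1, 1.57, 9.58 and 0.871 in NPPC. The stretches were separated after the values had been seen, and the groups overlapped for both and for the ratio.

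**Figure D2:**
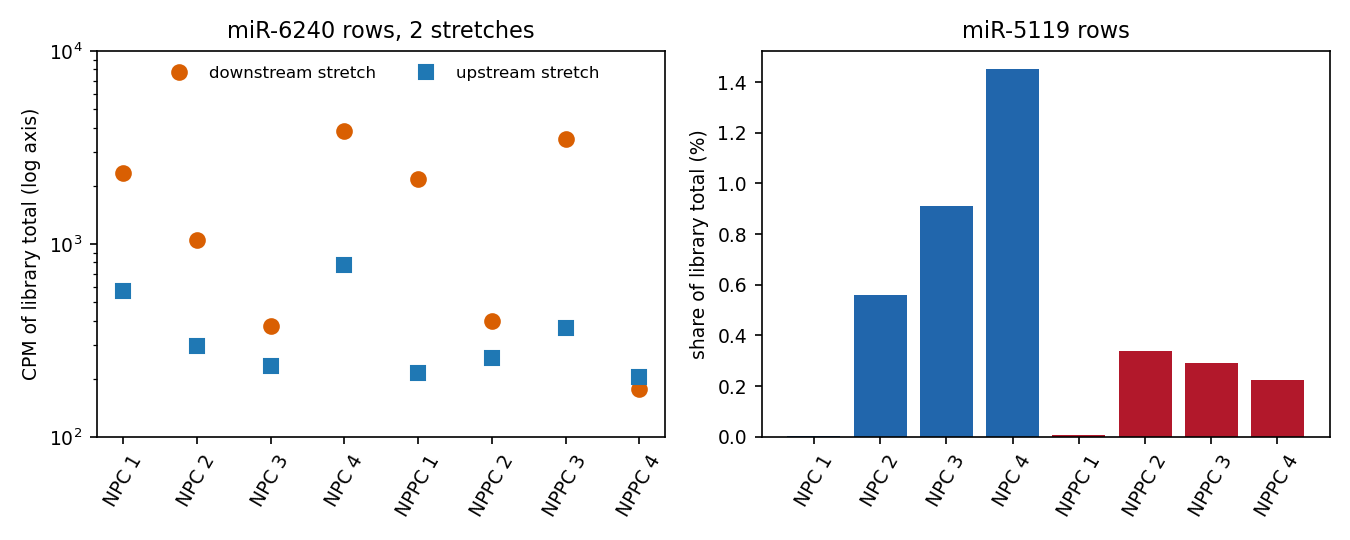
Left, summed CPM of the miR-6240 reads of the downstream and upstream stretch in each library (log axis). Right, share of the library total held by the miR-5119 reads (percent, bars from 0). The downstream stretch runs from 177 to 3841 CPM and the upstream one from 203 to 779 CPM, and the miR-5119 bars of both libraries numbered 1 are at 0.00274% and 0.00592%.

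The miR-2137 and miR-4508 reads, the richest in G and C, had the same order of NPC libraries by share of the library total. The miR-2137 reads (8 rows, 5 sequences) held 0.157%, 0.0333%, 0.0289% and 0.0570% in NPC and 0.0167%, 0.0266%, 0.0230% and 0.0247% in NPPC. On the library total NPC replicate 1 stood at 3.95 times the mean of the other NPC libraries, and the groups did not overlap. The ratio of means was 3.03 with all libraries and 1.60 without both libraries numbered 1. The miR-4508 reads (6 rows, 4 sequences) held 0.0635%, 0.0192%, 0.0148% and 0.0257% in NPC and 0.0101%, 0.00917%, 0.00914% and 0.0107% in NPPC. Here too NPC replicate 1 was 3.19 times the mean of the others, the groups did not overlap, and the ratio of means was 3.15, or 2.06 without both libraries numbered 1. On TMM-scaled totals these 2 families also did not overlap between groups, with ratios of 2.04 and 2.20. NPC replicate 1 then stood less far above NPC replicates 2 to 4. For miR-2137 it was at 860 CPM beside 333, 338 and 563 CPM, and for miR-4508 at 348 CPM beside 192, 173 and 254 CPM.

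The single reads of these families differed in detail. The miR-2137 read 1 stood at 669, 147, 104 and 203 CPM in NPC and 59.8, 123, 116 and 122 CPM in NPPC, so NPC replicate 3 lay below 3 NPPC libraries. Read 2, which runs 3 bases further, stood at 334, 71.2, 67.5 and 125 CPM and at 50.01, 50.4, 26.8 and 35.1 CPM, with no overlap. Read 3 stood at 222, 37.2, 66.02 and 83.7 CPM and at 23.2, 48.6, 55.8 and 48.8 CPM, which overlapped. The miR-4508 read 1 stood at 419, 131, 70.4 and 158 CPM in NPC and 76.8, 59.6, 52.9 and 64.8 CPM in NPPC, and NPC replicate 3 lay below NPPC replicate 1. Read 2 stood at 131, 32.4, 61.6 and 76.3 CPM and at 10.98, 22.01, 26.8 and 29.8 CPM, without overlap. Read 3 stood at 66.9, 28.3, 16.1 and 22.3 CPM and at 12.8, 10.1, 11.6 and 12.6 CPM, also without overlap.

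The miR-5119 reads, 12 rows with 10 sequences, were the most abundant family, with 43.0% of the counts of the 74 rows, and the most uneven. They held 0.00274%, 0.559%, 0.910% and 1.45% in NPC and 0.00592%, 0.341%, 0.293% and 0.226% in NPPC. Both libraries numbered 1 were nearly empty, with 9 counts in NPC replicate 1 (exact Clopper-Pearson 95% interval of the share 0.00125% to 0.00519%, counting error only) and 48.5 in NPPC replicate 1. These were 0.00281 and 0.0207 of the mean of the other 3 libraries of the group. No other family was low in both: in NPC replicate 1 the remaining families stood at 0.997 to 3.95 times, and in NPPC replicate 1 at 0.674 to 1.97 times, the mean of the others. With all libraries the groups overlapped, at 0.731% and 0.216%. Among the libraries numbered 2 to 4 the NPC share was 0.974% ± 0.449 (SD, n = 3) and the NPPC share 0.286% ± 0.0575 (SD, n = 3), a ratio of 3.40 without overlap.

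The 3 main miR-5119 reads shared this pattern. Read 1 was listed at 0 in NPC replicate 1 and stood at 3672, 5499 and 8995 CPM in NPC replicates 2 to 4, against 39.0, 2174, 1990 and 1471 CPM in NPPC. Read 2 lacks the first base of read 1 and stood at 27.4, 1559, 3047 and 4535 CPM and at 14.6, 985, 783 and 679 CPM. Read 3 lacks its last base and stood at 0, 310, 458 and 773 CPM and at 5.49, 175, 121 and 81.6 CPM. A predicted candidate row outside the 74, cTCATCACatcctggggctg, shares at least 14 bases with them. It was also lowest in both libraries numbered 1, at 30.4, 361, 648 and 1174 CPM in NPC and 0, 166, 145 and 108 CPM in NPPC. Of 2 rarer predicted rows that share 14 bases, aCACATCCtggggctgga was above 0 in NPC replicates 3 and 4 and NPPC replicate 4, at 17.6, 24.2 and 3.81 CPM. The other, aTCACATCctggggctggagaga, had 21.3 CPM in NPC replicate 1, 8.25 CPM in NPPC replicate 2 and 0 elsewhere. The smallest deposited value above 0 in the 74 rows was 2.5, so a value of 0 can hide a few reads.

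One deposited hairpin of the main miR-5119 read is shown because it runs into a repeat sequence. The hairpin was picked for the run given below, which stood in only 1 of the member hairpins (miR-5119 has 11 loci). It lies on chromosome 7 (chr7:124075764-124075852, minus strand, build not given) and begins with the read except for C6T, where the read's base comes first and positions count from its 5′ end. It continues into the run GGATTTAGCTCAGTGGTAGAGCGCTT, shown in capitals.
miR-5119 hairpin on chromosome 7: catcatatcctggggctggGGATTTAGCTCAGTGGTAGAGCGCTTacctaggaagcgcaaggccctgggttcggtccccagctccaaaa
Bc1, first transcribed bases: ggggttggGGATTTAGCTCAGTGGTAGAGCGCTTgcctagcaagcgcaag
The same 26 bases stand near the start of Bc1, a neuronal RNA held to be a source of the rat ID repeats (RefSeq GRCr8, first 50 transcribed bases). Searched on both strands, the run stood in 132 of 33469 RefSeq promoters (0.394%), each 250 bases before to 50 after a start. The read itself ends before the run, and the 3 main reads stood in 0 of these promoters. No match says only that these letters are not in those windows.

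The miR-3473 reads, 3 rows with 2 sequences, rested on 1 sequence. The family held 0.371%, 0.224%, 0.125% and 0.193% in NPC and 0.10002%, 0.138%, 0.0909% and 0.111% in NPPC. NPC replicate 1 was the highest, and NPC replicate 3 lay below NPPC replicate 2, so the groups overlapped. On TMM-scaled totals NPC replicate 2 was the highest, at 2237 CPM beside 2035 CPM in NPC replicate 1, and the groups overlapped too. The means were 0.228% ± 0.104 (SD, n = 4) and 0.110% ± 0.0205 (SD, n = 4), a ratio of 2.07, or 1.59 without both libraries numbered 1. Read 1, which 2 rows named miR-3473b and miR-3473e hold, stood at 3677, 2206, 1248 and 1916 CPM and at 986, 1353, 909 and 1101 CPM. It stood in 81 of 33469 promoters (0.242%), on either strand. Read 2, which lies in the deposited hairpin below, stood at 36.5, 30.7, 0 and 9.30 CPM and at 14.6, 28.4, 0 and 7.63 CPM.

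Rat has a miR-3473 of its own, which is set beside read 1 for comparison. Read 1 equals a stretch of it except for the last base, C in the read and A in the rat miRNA. The search of the rat hairpins counted exact matches only, so it could not find this likeness. The mature sequence in RefSeq (GRCr8, chr13:42051730-42051751, plus strand) is given with its seed in capitals, and the hairpin deposited for read 2 (chr1:64579164-64579224, minus strand, build not given) with the read in capitals.
rat miR-3473: tCTAGGGCtggagagatggcta
miR-3473 read 2 hairpin: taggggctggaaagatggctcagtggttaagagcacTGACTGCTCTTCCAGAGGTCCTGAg
The row named after the rat miRNA held gGGGCTGGagagatggct, a shortened form with a base substitution recorded in its name, at 3501, 1105, 794 and 1246.5 CPM in NPC and 905, 487, 334 and 408 CPM in NPPC. In each group the library numbered 1 was the highest, and the groups overlapped.

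The miR-1246 reads, 5 rows with 3 sequences, were rare, with 245 counts over all libraries. They held 0.00547%, 0.00760%, 0.00514% and 0.00372% in NPC and 0.00464%, 0.00339%, 0.00198% and 0.00168% in NPPC, and NPC replicate 4 lay below NPPC replicate 1. The ratio of means was 1.88, or 2.34 without both libraries numbered 1. Read 1 stood at 0, 30.7, 8.80 and 22.3 CPM and at 28.1, 18.3, 11.998 and 8.39 CPM, with close to equal means of 15.5 CPM ± 13.7 (SD, n = 4) and 16.7 CPM ± 8.62 (SD, n = 4). Read 2 stood at 24.3, 32.4, 30.8 and 14.9 CPM and at 10.98, 15.6, 7.76 and 0 CPM. Read 3 stood at 30.4, 12.9, 11.7 and 0 CPM and at 7.32, 0, 0 and 8.39 CPM. A bovine-named row outside the 74, aATGGATTtttggagcaggg, is read 1 with a further G. It held more reads, at 115, 154, 110.04 and 117 CPM in NPC and 105, 63.3, 28.2 and 25.2 CPM in NPPC, without overlap.

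**Figure D3:**
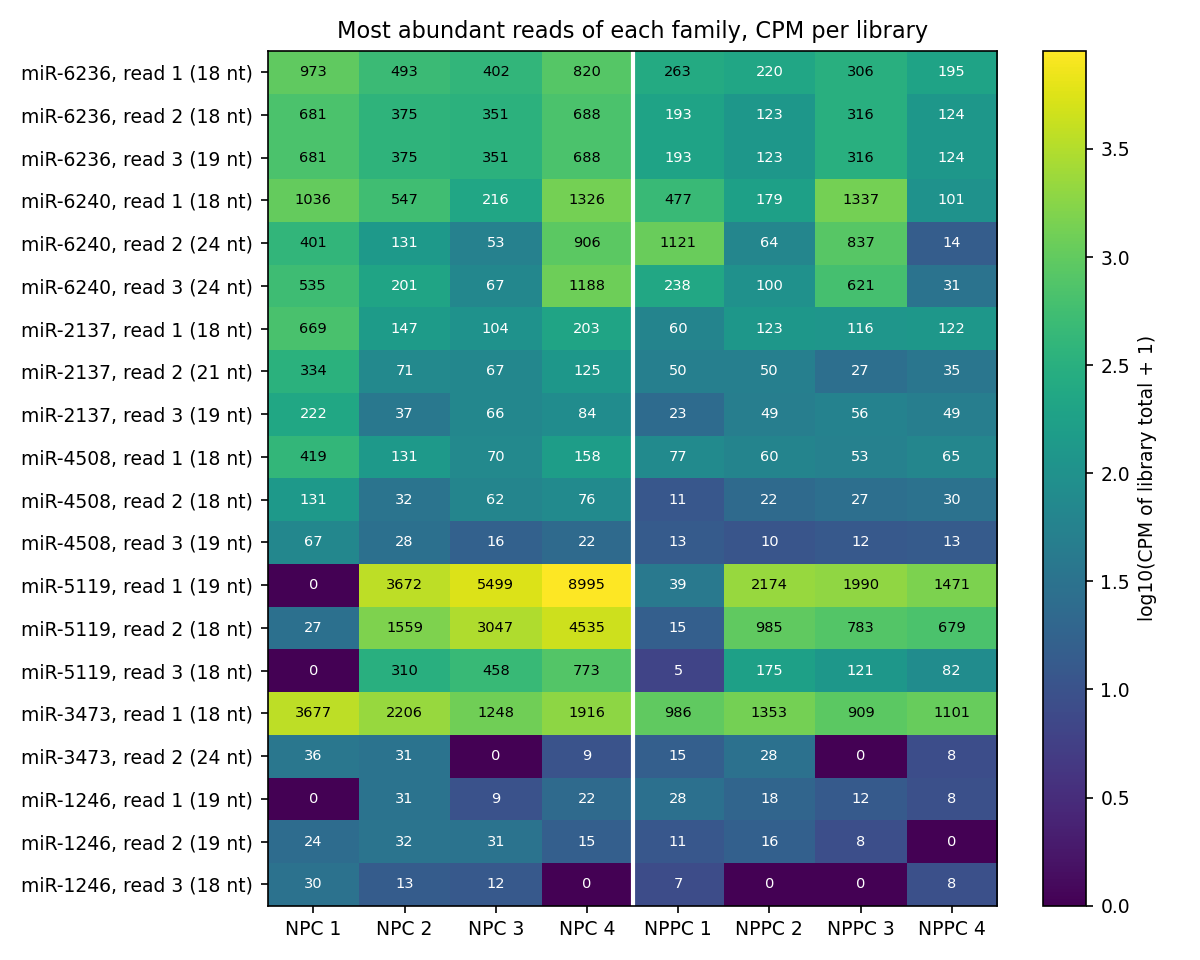
CPM of the library total for the 3 most abundant reads of each family (2 for miR-3473) in the 8 libraries. Colour is log10(CPM + 1) and the printed numbers are rounded CPM. The miR-5119 rows are dark in NPC 1 and NPPC 1, where read 1 stands at 0 and 39.0 CPM, and the miR-6240 rows vary within both groups.

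The shares of the families were compared over the 8 libraries, which share depth and scaling. Pearson's r, given as a description over 8 libraries, was 0.96 between miR-2137 and miR-4508, 0.93 between miR-4508 and miR-3473 and 0.91 between miR-2137 and miR-3473. By share of the library total NPC replicate 1, with its TMM factor of 1.82, was the highest library for all 3. On TMM-scaled totals that held for miR-2137 and miR-4508, while miR-3473 was highest in NPC replicate 2. These correlations use shares of the library total, so the part that scaling has in them was not tested. The miR-6236 family had r of 0.83 with miR-4508, 0.76 with miR-2137, 0.71 with miR-3473 and 0.71 with miR-6240. The miR-5119 family had r from -0.35 to -0.061 with the others. Over 34 sequences with at least 100 counts, Spearman's rho between GC content and the log2 ratio of NPC replicate 1 to the other NPC libraries was 0.49, and 0.63 over the 30 sequences outside miR-5119. The sequences overlap each other, so they are not independent.

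The rows with the most similar profile over the 8 libraries, by Pearson's r of log2(CPM + 1) with the sum of the 74 rows, were looked up among 280 rows of at least 50 CPM on average. Among rat names they were miR-30a-3p (0.84), miR-224-5p (0.76) and miR-322-5p (0.75). Among other names they were hsa-mir-636-p5 (0.72), the predicted candidate described beside miR-5119 (0.66) and bta-miR-12034 (0.65). The median over the 280 rows was 0.039.

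The deposited hairpins of the rows were shorter than those of rat miRNAs. For 71 rows the table gave a hairpin, with a median of 70 nt (26 to 147) against 100 nt for rat rows, and 20 of the 71 (28.2%) were under 50 nt, against 0.659% of rat rows. Bovine-named rows had shorter ones still (median 38 nt, 60.5% under 50 nt), those of further species a median of 82 nt with 21.1% under 50 nt, and predicted candidates a median of 85 nt. They lay at 62 loci on 18 chromosomes. The 8 miR-2137 loci held 1 and the same 98-nt hairpin sequence, 5 of them on chromosome 14, and all 5 miR-4508 loci lay on chromosome 14 as well. The hairpins of differently named families are shown here because some of them lie side by side, with the read in capitals and coordinates as deposited, build not given.
miR-6236, chr14:46523163-46523309, plus strand: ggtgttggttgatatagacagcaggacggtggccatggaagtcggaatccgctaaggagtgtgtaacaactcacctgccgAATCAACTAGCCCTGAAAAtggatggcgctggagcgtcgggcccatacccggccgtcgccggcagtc
miR-2137, chr14:46653131-46653228, plus strand: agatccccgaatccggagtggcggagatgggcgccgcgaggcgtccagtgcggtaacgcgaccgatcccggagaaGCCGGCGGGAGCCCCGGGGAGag
miR-4508, chr14:46653528-46653576, plus strand: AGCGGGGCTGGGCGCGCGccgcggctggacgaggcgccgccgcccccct

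Some hairpins of miR-6236, miR-6240, miR-2137 and miR-4508 lay near each other. There were 6 windows in which members of at least 2 families lay within 20000 bp of each other, on chromosomes 1, 5, 6 and 14, and all member hairpins in them were on the plus strand. They took in all 5 miR-4508 loci, 7 of 8 miR-2137 loci, 5 of 18 miR-6236 loci and 4 of 14 miR-6240 loci, together 21 of the 62 loci. Outside them 6 miR-6236 and 4 miR-6240 loci were on the minus strand. From the start of a miR-2137 hairpin to that of the next miR-4508 hairpin the distance was 396, 396 and 397 bp at 3 places on chromosome 14, and 994 and 2602 bp at the other places there. From miR-4508 to miR-6240 it was 557 and 614 bp, and from miR-6236 to miR-6240 it was 1532, 1726 and 2740 bp on chromosomes 14, 1 and 5. From miR-6236 it was 461 and 4572 bp to miR-2137, and 918 and 1455 bp to miR-4508, so most distances differed from place to place. The 6 windows held 31 rows of the table: 25 of the 74, 3 bovine and 3 other foreign names, and 0 rat names. The windows were drawn around hairpins of the 74 rows, so only the few rows outside the 74 could have had rat names. Nothing is read from that 0. The families miR-5119, miR-3473 and miR-1246 had no hairpin in these windows.

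**Figure D4:**
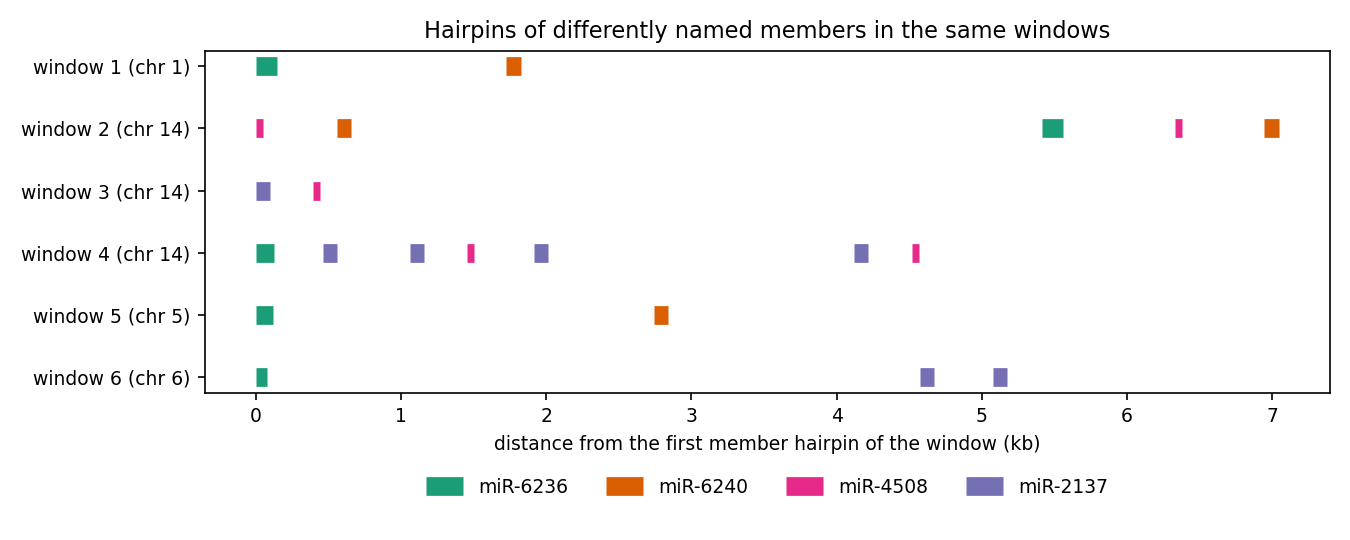
Deposited hairpins in the 6 windows shared by at least 2 families, placed by distance in kb from the first hairpin of the window. Blocks are hairpins coloured by family, drawn to scale. Blocks of miR-2137 and miR-4508 recur 396 to 397 bp apart at 3 places on chromosome 14.

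In a fit over the whole table with edgeR's quasi-likelihood test, two-sided, 50 of the 74 rows (35 sequences) were abundant enough to enter among 464 rows. Of these 0 passed an adjusted p of 0.05, where the background over all 464 rows was 0%. Adjusted p-values of the 50 rows ran from 0.260 to 0.989. At an unadjusted p under 0.05 there were 20 rows lower in NPPC, where 7.11% of all rows were, and 0 higher, where 5.82% were. In 15 rows with 9 sequences every NPPC library lay below every NPC library on TMM-scaled CPM (background 5.6%), and in 0 rows above (background 9.05%). The choice of families used this contrast and many of the rows repeat the same values, so nothing is read from these counts.

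The fitted log2 fold changes of NPPC against NPC were negative in 45 of the 50 rows and positive in 5, with a median of -1.07, beside 0.045 over all 464 rows. By family the medians were -1.66 for 6 miR-5119 rows, -1.12 for 14 miR-6236 rows, -1.08 for 8 miR-2137 rows, -1.07 for 5 miR-4508 rows, -0.63 for 3 miR-3473 rows and -0.049 for 13 miR-6240 rows. The only miR-1246 row fitted had 0.20 ± 0.92 (SE). The miR-5119 rows had the widest errors, with SEs from 1.18 to 1.57, while the miR-6236 read 1 had -1.07 ± 0.25 (SE, edgeR adjusted p = 0.260) and the miR-2137 read 2 had -1.34 ± 0.41 (SE, edgeR adjusted p = 0.268).

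Leaving out both libraries numbered 1, an alternative chosen after the data had been seen, changed the calls. Then 6 of the 52 member rows tested passed edgeR's test with an adjusted p of 0.0388 each. Of all 501 rows tested 10.6% passed, a similar share, so nothing is read from that count. Some of the 6 rows repeat a sequence with the same values. The log2 fold changes were -1.53 ± 0.31 (SE) for read 1 of miR-5119, -1.75 ± 0.36 for its read 2, -1.87 ± 0.39 for its read 3 and -1.90 ± 0.37 for the miR-6236 sequence aAAATGGAtggcgctggag. With the DESeq2 Wald test on all libraries 3 of 50 member rows passed, where 2.37% of all rows did. These were both rows of miR-6236 read 1 (log2 fold change -1.11, adjusted p = 0.00269) and the miR-2137 sequence cGGCGGGAgccccggggag (-1.66, adjusted p = 0.0195). These calls are a description too, since the same contrast chose the families.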

How the data were processed

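The data were 8 small RNA libraries of rat disc cell exosomes, 4 per group, grouped and numbered by the sample titles. Per the submitters' processing notes CASAVA 1.8 was used; the aligner is not given in the sources used here, nor are the miRBase release and genome build. Each row of the deposited table holds estimated counts beside a scaled signal column that was not used. Folding energies and hairpin coordinates are also those deposited by the authors, whose table also gives the GC percent of each hairpin. GC values in the text were computed from the read sequences instead.

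Shares are summed estimated counts over the library total of all rows. The row test used whole-rounded estimated counts and edgeR 4.0.16 (R 4.3.3, TMM, filterByExpr, group only, Benjamini-Hochberg over 464 rows). On simulated data, in which 182 of 429 rows were changed, it recovered 26.7% of 2-fold and 73.9% of 4-fold changes at an adjusted p under 0.05. With fewer changed rows the adjusted threshold is harder to reach, so recovery in the real libraries may be lower. Most 2-fold changes would thus be missed, and a row not called may still differ. Limma 3.58.1, DESeq2 1.42.0, other scalings and filters, a replicate block and each library left out were alternatives; TMM-scaled totals, both libraries numbered 1 left out and each set of 8 values counted 1 time were added after the data had been seen. Python 3.11.15, numpy 2.4.6, pandas 2.3.3 and matplotlib 3.10.9 did the rest. Sequences came from the deposited table and RefSeq (GRCr8).

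The families, the marker lists and the rule for named reads (up to 3 per family, by total count) were chosen with earlier results of these data known. Reads named beyond that rule were chosen after their values were seen.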

Additional observations from a re-analysis of the deposited data

Results flagged for a closer look

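In 2 of 56 sets of 4 libraries, 1 library lay far from its group, and by chance about 1 in 20 sets would show this. The share of the library total held by all 74 rows was 2.59% in NPC replicate 4, while the other NPC libraries lay between 1.20% and 1.33%. The miR-2137 read gCCGGCGGgagccccggg stood at 59.8 CPM in NPPC replicate 1, while the other NPPC libraries lay between 116 and 123 CPM.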

How the results depend on the processing

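The share of all 74 rows, NPPC minus NPC, was -0.945 percentage points. It lay between -1.08 and -0.61 with each library left out and kept its sign in every alternative run. Without rows that carry a base substitution it was -0.29. Of 50 member rows tested, edgeR called 0, with 20 at an unadjusted p under 0.05, and the DESeq2 Wald test called 3. Without both libraries numbered 1, edgeR called 6 of 52 member rows. The numbers in the titles were not taken as pairs, since not every same-number correlation was over 0.1: they ran from 0.041 to 0.57, the latter for the libraries numbered 1, and 1 of 4 NPC libraries correlated best with its own number. With the replicate block 0 member rows were called, with 19 at an unadjusted p under 0.05. Over all rows, 0 were called in the fit as planned, 11 by DESeq2, 53 without both libraries numbered 1 and at most 1 in the other settings. Without NPC replicate 4, 10 member rows had an unadjusted p under 0.05, and 12 after summing per sequence, where fewer rows are tested; over all rows this number ran from 39 to 136.

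Direction turned for these values; the cause was not tested. The miR-6240 share difference ran from -0.127 to 0.0189 with a library left out, and that of miR-5119 was 0.000115 without substitution rows, which leaves few counts. On the log2 scale, miR-1246 read 1 lay between -0.21 and 0.76 with each library left out (-0.21 without NPC replicate 1, -0.092 without NPPC replicate 1) and at -0.49 without both libraries numbered 1. The miR-3473 read 2 lay between -0.51 and 0.52 with each library left out. The main miR-5119 read gave 0.16 with limma-voom. The miR-6240 read 1 lay between -1.30 and 0.37 when NPPC replicate 3 or NPC replicate 4 was left out. Its read 2 gave -0.067 with limma-voom and -0.010 without both libraries numbered 1, and its read 3 lay between -1.73 and 0.54 for the same libraries left out. The fold changes of reads 1 to 3 of miR-6236, miR-2137 and miR-4508 kept their sign in every alternative that fitted them. Low counts limit miR-1246 most, with 245 counts in all.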

Other observations

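The windows that hold hairpins of miR-6236, miR-6240, miR-2137 and miR-4508 also hold 6 rows with other foreign names, looked up after the windows had been seen. The read cCCGGGGAgcccggcggg, named after bovine miR-12034, stood at 447, 146, 93.9 and 125 CPM in NPC and 40.3, 52.3, 36.7 and 33.6 CPM in NPPC replicates 1 to 4. NPC replicate 1 was the highest and the groups did not overlap. Its hairpin lies at chr14:46518055-46518147 on the plus strand, between the first miR-4508 and miR-6240 hairpins of that window, and 94.4% of its bases are G or C. The read aGGGAACGggcttggcgg, named after bovine miR-11980 and placed in a window on chromosome 14 and another on chromosome 6, stood at 198, 81.7, 58.0 and 92.1 CPM in NPC and 28.7, 45.9, 31.1 and 43.9 CPM in NPPC. Again NPC replicate 1 was the highest and the groups did not overlap. The read gGGTGGGGtcggcggggg, named after pig miR-4332, stood at 25.8, 20.2, 23.5 and 48.4 CPM and at 6.10, 13.8, 13.1 and 11.8 CPM. The remaining rows, named after mouse miR-6238 and human miR-10400-5p, were at 0 in most libraries.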
